A study of Mus musculus with 12 samples.

Results

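The transcripts described here encode the positive transcription elongation factor P-TEFb and the proteins that hold or recruit it. They were selected by gene name and comprise 9 genes of the 29486 listed in the table of normalized counts: Hexim1, Larp7, Mepce, Cdk9, Ccnt1, Ccnt2, Aff1, Aff4 and Ell. Each name matched 1 row, and all 9 genes were among the 15507 with a deposited value of at least 10 in at least 4 libraries. Splenic B cells of C57BL/6Babr mice, which the methods of the study place at 8 to 12 weeks of age, were isolated with a kit and stimulated with LPS at 10 μg/ml. The RNA was sequenced in 3 conditions, with 4 libraries each, which the study calls biological replicates and which no label ties to animals. The first was LPS for 48 h (LPS). The second was LPS for 48 h and then 4 h of etoposide at 20 μM, a topoisomerase II inhibitor that causes DNA double-strand breaks (LPS + etoposide). The third was 47 h of LPS, 1 h of the ATM kinase inhibitor KU55933 at 10 μM and then the same etoposide treatment (LPS + KU55933 + etoposide). The labels give no genetic alteration for any group, and the labels do not say whether the cells with LPS alone had the additional hours in culture. KU55933 without etoposide was not among the conditions, and each condition carried a pair of sequencing indexes of its own, so that index and condition cannot be told apart.

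P-TEFb is the kinase CDK9 bound to cyclin T1 or cyclin T2. It phosphorylates RNA polymerase II, the pausing factor NELF and the elongation factor DSIF, and so lets polymerases that have paused shortly after initiation proceed into the gene. Much of the P-TEFb in a cell is held inactive in a particle built on the small nuclear RNA 7SK, in which HEXIM1 binds and inhibits the kinase, LARP7 protects the end of 7SK, and MEPCE caps it. Released P-TEFb can join the super elongation complex, for which AFF1 and AFF4 are scaffolds and to which the elongation factor ELL belongs. Inhibitors of transcription and ultraviolet light are known to release P-TEFb from the 7SK particle.

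The 4 columns of each condition are not independent measurements. Within a condition their ratios were the same for every one of the 29486 genes, to within 1.4e-14 (log2). Each value was therefore a mean fitted for the condition multiplied by a factor of the library, and the table gave no spread between replicates. For this reason no test, standard error or p-value was computed, and the differences below are descriptions of 1 fitted mean per condition. They were set against a size of 1.5-fold and against the differences of all 15507 genes. Column totals ranged from 20739978 to 23935658 with LPS, from 22523516 to 30575195 with LPS + etoposide and from 20400994 to 25052093 with LPS + KU55933 + etoposide. Columns were divided by size factors before comparison, and a range in brackets after a difference spans 7 ways of scaling. The median log2 difference of all genes kept was −0.015 for etoposide against LPS and 0.023 for both drugs against LPS. With library totals in place of size factors these medians were 0.114 and 0.195, and with the other scalings they lay between −0.102 and 0.118.

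The labelled cell type was checked with marker genes. All 7 B cell markers were expressed, while their summed normalized count was 138056.5 with LPS, 74052.7 with LPS + etoposide and 83408.9 with LPS + KU55933 + etoposide, and 6 of the 7 were at least 1.5-fold lower after etoposide. The 3 plasma cell markers summed to 10110.5, 8982.9 and 7289.1 in the same order of conditions. Among them Sdc1 had counts of 138.3, 1953.0 and 636.1. The others, Xbp1 (7612.2, 5315.4 and 5433.0) and Prdm1 (2359.9, 1714.5 and 1220.1), were lower than with LPS alone in both etoposide conditions. The 6 macrophage markers summed to between 417.4 and 467.8, with 3 of the 6 at least 1.5-fold higher and 1 lower after etoposide and with Csf1r between 4.2 and 10.3, and the 3 red blood cell markers to between 99.1 and 208.4. T cell markers (7.1 to 8.2), the 1 of 2 NK cell markers that was listed (0.5 to 1.1) and neutrophil markers (0.9 to 1.1) were near 0. The part of these shifts in the results below was not tested, and in bulk RNA a smaller number of cells of a type cannot be told apart from less RNA per cell.

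Upstream sequences are shown for Hexim1 and Larp7, whose proteins share the 7SK particle and whose transcripts differed in direction. They were taken from the RefSeq promoter table (GRCm38.p6), in which 8 of the 9 genes matched, and are printed only up to the first annotated exon. Capitals mark matches, on either strand, to the searched motifs. These were CCAAT (the CCAAT box, ATTGG on the other strand), GGGCGG (the GC box, which reads CCGCCC on the other strand) and TATATA. The Hexim1 sequence covers 156 bases, chr11:103116075-103116230 on the plus strand, and the Larp7 sequence 250 bases, chr3:127553350-127553599 on the minus strand.
Hexim1: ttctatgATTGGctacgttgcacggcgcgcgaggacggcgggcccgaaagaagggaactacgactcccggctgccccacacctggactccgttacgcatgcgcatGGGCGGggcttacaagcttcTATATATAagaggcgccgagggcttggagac
Larp7: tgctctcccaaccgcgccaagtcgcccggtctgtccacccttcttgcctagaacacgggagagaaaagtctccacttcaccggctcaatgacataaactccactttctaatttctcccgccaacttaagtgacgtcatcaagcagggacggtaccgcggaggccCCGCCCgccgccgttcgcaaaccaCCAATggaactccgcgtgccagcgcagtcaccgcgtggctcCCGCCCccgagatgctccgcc

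In Hexim1 the first TATATA began 31 bases before the start of the gene in GENCODE. This motif was chosen after the sequence was seen, and among the 8 matched genes it occurred in the 250 bases before the start of Hexim1 alone. It was present in 5.2% of all 32851 promoter windows of that length. The standard form TATAAA, present in 12.4% of windows, matched none of the 8 genes. GGGCGG was found in 7 of the 8, against 32.7% of all windows, with Aff4 as the exception. CCAAT was found in Hexim1, Larp7, Cdk9 and Ccnt2, against 33.8% of windows, and GGAAG, the core of ETS sites, in Hexim1, Ccnt1, Cdk9 and Aff1, against 64.1%. CACGTG, the E-box bound by Myc-family factors, was found in Aff4 only, against 6.0%. Motifs were counted in the 250 bases before each RefSeq start, and these do not always lie upstream of the annotated gene. Of these bases, 156 lay ahead of the first annotated exon for Hexim1, 32 for Ell and 0 for Cdk9 and Ccnt1. In the bases ahead of annotated exons, no GGAAG match remained. There CCAAT matched Hexim1, Larp7 and Ccnt2, and GGGCGG matched Hexim1, Larp7, Ccnt2 and Aff1. The windows of Cdk9, Ccnt1 and Aff1 lay inside the gene as annotated by GENCODE, and Aff1 was scored on more than 1 window. Matches may overlap. The GC content of these windows lay between 61.2% in Hexim1 and 79.2% in Aff4, and the median of all windows was 52.4%. A match of letters says nothing about binding in these cells.

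**Figure D1:**
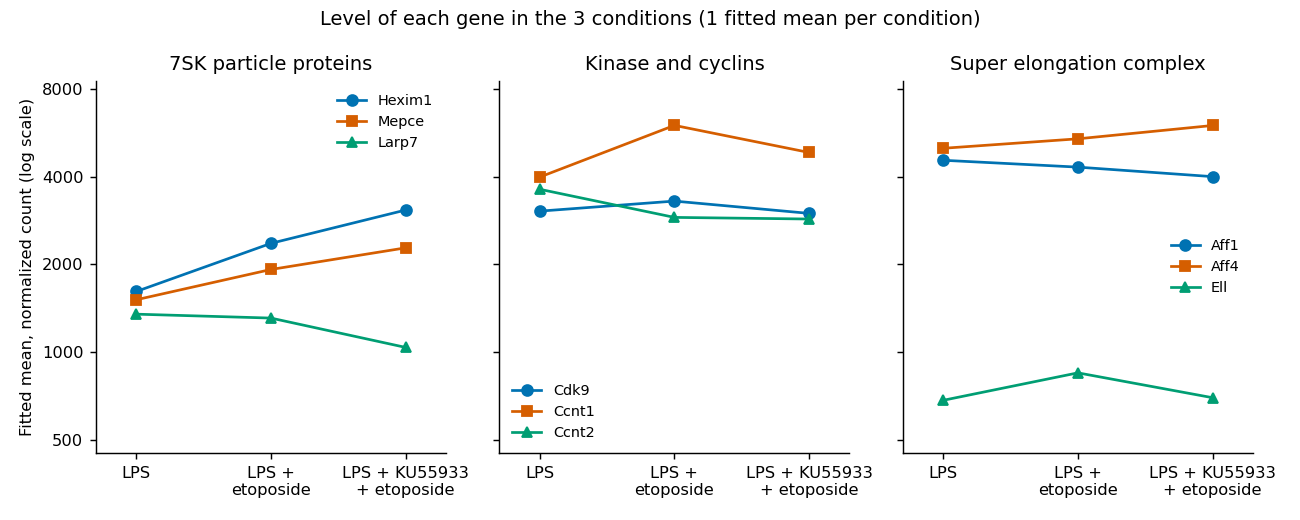
Fitted mean of each gene as normalized count (log scale) in the 3 conditions, with genes grouped into 7SK particle proteins, kinase and cyclins, and super elongation complex. Hexim1 and Mepce are highest with LPS + KU55933 + etoposide, Ccnt1 and Ell are highest with LPS + etoposide, and Larp7 is lowest with LPS + KU55933 + etoposide.

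In undamaged LPS-activated B cells all 9 transcripts were present at moderate levels. Compared per kilobase of exonic sequence, which allows levels of different genes to be set side by side, Cdk9 had the highest level with LPS, 660.3 normalized counts per kb. Larp7 (570.7), Aff1 (480.9), Hexim1 (462.1), Ccnt1 (435.1), Mepce (425.8) and Aff4 (371.7) followed, and Ccnt2 (293.0) and Ell (220.2) were lowest. On this scale Ell lay above 62.0% and Cdk9 above 85.1% of all genes kept. With LPS + etoposide, Cdk9 (714.8 per kb) was followed by Hexim1 (675.6) and Ccnt1 (654.2). With LPS + KU55933 + etoposide Hexim1 had the highest level of the 9, 878.8 per kb, ahead of Cdk9 (648.7) and Mepce (641.4). Larp7 went from the second place with LPS to the sixth with LPS + KU55933 + etoposide. Whether neighbours in this order differ beyond replicate spread cannot be judged from fitted means. This order depends on the annotated exonic length, since Aff4, with 13.45 kb of exons, had the highest normalized count of the 9 with LPS before division by length (4999.6).

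Among the 7SK particle proteins, Hexim1 and Mepce were higher after etoposide and higher again with KU55933, whereas Larp7 was close to its LPS level after etoposide and lower with KU55933. Hexim1 (ENSMUSG00000048878, chromosome 11, 103116231 to 103119725, GRCm38) consists of a single exon of 3.5 kb and encodes the inhibitor of the kinase. As deposited, its 4 columns read 1321, 1466, 1524 and 1374 with LPS, 2296, 2573, 3116 and 2494 with LPS + etoposide, and 2788, 3144, 3368 and 3424 with LPS + KU55933 + etoposide. The columns of both etoposide conditions lay above all LPS columns and overlapped each other, before the library factors were divided out. Since each column is the fitted mean times a library factor, overlap of columns here and below does not measure the spread between replicates. Size factors were 0.818 to 0.944 with LPS and 0.972 to 1.32 with LPS + etoposide. Columns of these conditions therefore separate even for a gene with equal means.

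After scaling, the Hexim1 normalized count was 1615.1 with LPS, 2361.2 with LPS + etoposide and 3071.3 with LPS + KU55933 + etoposide. The difference of log2(normalized count + 1) was 0.55 for etoposide against LPS (0.46 to 0.68), 0.38 for KU55933 against etoposide alone (0.37 to 0.47) and 0.93 for both drugs against LPS (0.87 to 1.10). These differences exceeded those of 77.2%, 85.5% and 87.6% of all genes kept, in the same order. Of the 15507 genes, 207 (1.33%) were at or above Hexim1 in both the etoposide step and the KU55933 step. Both steps use the etoposide libraries, whose mean raises the first difference and lowers the second, which works against being high in both. The cutoff is the pair of values of Hexim1 itself, so the share is a description only.

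Mepce (ENSMUSG00000029726, chromosome 5, 137781906 to 137787655), the methyltransferase that caps 7SK, had deposited values of 1237, 1373, 1428 and 1287 with LPS, 1868, 2094, 2536 and 2030 with LPS + etoposide, and 2069, 2333, 2499 and 2540 with LPS + KU55933 + etoposide. Again the columns of the etoposide conditions lay above every LPS column and overlapped each other before scaling. The size factors alone separate LPS from LPS + etoposide. Scaled counts were 1512.9, 1921.3 and 2278.9. The log2 difference was 0.34 for etoposide against LPS (0.26 to 0.47) and 0.25 for KU55933 against etoposide alone (0.24 to 0.31). Against LPS, both drugs together gave 0.59 (0.53 to 0.76), just past 1.5-fold. That position is not secure, because it became 0.58, short of 1.5-fold, when the column of any 1 of the 4 etoposide libraries was left out of the scaling.

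Larp7 (ENSMUSG00000027968, chromosome 3, 127536714 to 127553349) binds and stabilises 7SK. Its deposited columns ranged from 1104 to 1275 with LPS, from 1273 to 1728 with LPS + etoposide and from 943 to 1158 with LPS + KU55933 + etoposide. After scaling the counts were 1350.4, 1309.3 and 1038.8, so that the higher columns of the etoposide condition reflected library factors. The log2 difference was −0.04 for etoposide against LPS and changed sign with the scaling (−0.13 to 0.09). It was −0.33 for KU55933 against etoposide alone (−0.34 to −0.29) and −0.38 for both drugs against LPS (−0.44 to −0.20).

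The kinase subunit was close to its LPS level in both etoposide conditions. Cdk9 (ENSMUSG00000009555, chromosome 2, 32705784 to 32713076) had scaled counts of 3044.7 with LPS, 3295.8 with LPS + etoposide and 2991.3 with LPS + KU55933 + etoposide. Its log2 difference was 0.11 for etoposide (0.03 to 0.25) and −0.14 for KU55933 against etoposide alone (−0.15 to −0.06). Against LPS, both drugs together gave −0.03, with a sign that depended on the scaling (−0.08 to 0.18), and 96.5% of all genes kept differed by more in size.

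The cyclins that activate CDK9 differed in direction after etoposide. Ccnt1 (ENSMUSG00000011960, chromosome 15, 98538689 to 98570923), which encodes cyclin T1, had deposited values of 3258, 3615, 3761 and 3389 with LPS, 5824, 6528, 7906 and 6328 with LPS + etoposide, and 4391, 4951, 5305 and 5392 with LPS + KU55933 + etoposide. The columns of the 3 conditions did not overlap before the library factors were divided out, though the size factors of LPS and LPS + etoposide did not overlap either. Scaled counts were 3984.0, 5990.2 and 4836.9, a difference of 0.59 for etoposide against LPS (0.50 to 0.80), −0.31 for KU55933 against etoposide alone (−0.32 to −0.25) and 0.28 for both drugs against LPS (0.22 to 0.55).

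Ccnt2 (ENSMUSG00000026349, chromosome 1, 127774164 to 127808061), which encodes cyclin T2, had scaled counts of 3617.6 with LPS, 2897.9 with LPS + etoposide and 2860.9 with LPS + KU55933 + etoposide. It was lower than with LPS alone in both etoposide conditions, with log2 differences of −0.32 (−0.41 to −0.16) without KU55933 and −0.34 (−0.40 to −0.12) with it. With and without KU55933 it differed by −0.02, with a sign that depended on the scaling (−0.03 to 0.04). Ccnt1 made up 52.4% of the normalized counts of the cyclin T pair with LPS, 67.4% with LPS + etoposide and 62.8% with LPS + KU55933 + etoposide. Per kilobase these shares were 59.8%, 73.6% and 69.5%, and none of them depends on the scaling factors. On the strand opposite to Ccnt1, the annotated gene 9330020H09Rik covers 7.6% of its exonic bases. The libraries were made with a stranded kit, while the strand setting of the counting is not given in the sources used here.

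**Figure D2:**
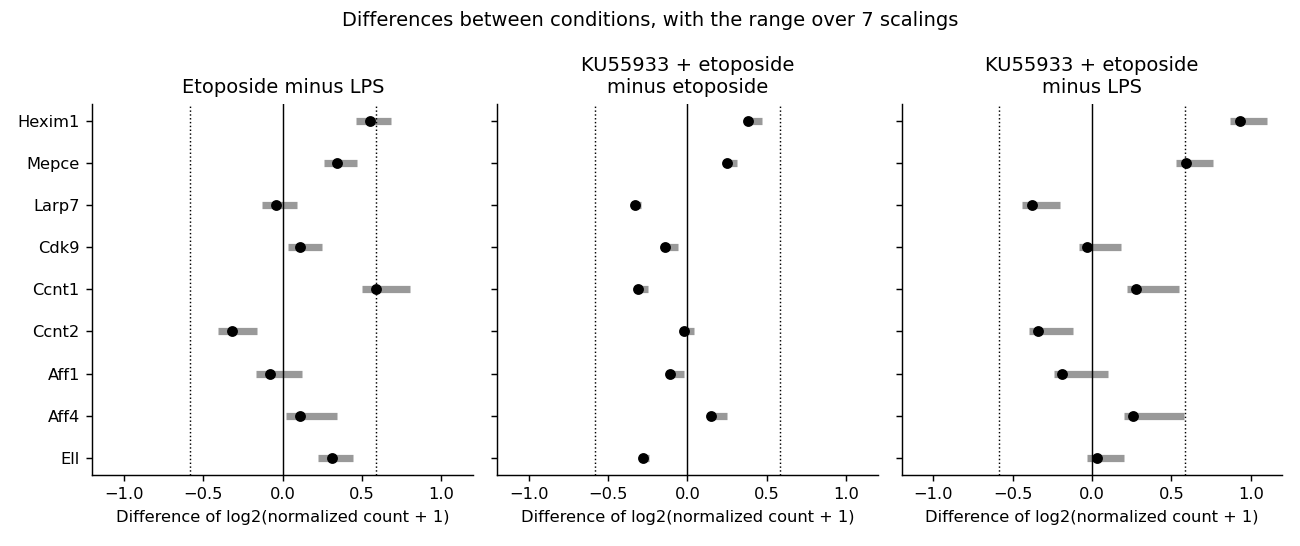
Difference of log2(normalized count + 1) of each gene in the 3 comparisons. Points are the reported values, grey bars span 7 scalings, and dotted lines mark 1.5-fold. Ccnt1 lies on the upper line for etoposide minus LPS, and Hexim1 lies beyond it for KU55933 + etoposide minus LPS.

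In the super elongation complex both scaffolds were less than 1.5-fold from their LPS level in the scaled counts, and Ell was highest with etoposide alone. Aff4 (ENSMUSG00000049470, chromosome 11, 53350833 to 53421830), the main scaffold, had scaled counts of 4999.6, 5387.7 and 5985.2 in the order LPS, LPS + etoposide and LPS + KU55933 + etoposide. Its log2 difference was 0.11 for etoposide (0.02 to 0.34), 0.15 for KU55933 against etoposide alone (0.14 to 0.25) and 0.26 for both drugs against LPS (0.20 to 0.58). Its paralogue Aff1 (ENSMUSG00000029313, chromosome 5, 103692374 to 103855322) had the longest genomic span of the 9, 162.9 kb, and counts of 4548.5, 4309.2 and 3997.8. The Aff1 difference was −0.08 for etoposide and −0.19 for both drugs against LPS, and these signs depended on the scaling (−0.17 to 0.12 and −0.24 to 0.10). For KU55933 against etoposide alone it was −0.11 (−0.12 to −0.02).

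Ell (ENSMUSG00000070002, chromosome 8, 70539457 to 70592858), which suppresses pausing of RNA polymerase II, had deposited columns from 560 to 646 with LPS, from 826 to 1122 with LPS + etoposide and from 634 to 779 with LPS + KU55933 + etoposide. Its scaled counts were 684.3, 849.8 and 698.5. The log2 difference was 0.31 for etoposide against LPS (0.22 to 0.44) and −0.28 for KU55933 against etoposide alone (−0.30 to −0.24). With both drugs Ell differed from LPS by 0.03, with a sign that depended on the scaling (−0.03 to 0.20).

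The number of the 9 genes past 1.5-fold was set beside the share of all genes kept, and with 9 genes these counts are too small to tell the members from the background. For etoposide against LPS, 1 of the 9 genes (Ccnt1) was at least 1.5-fold higher, against 21.9% of all genes kept, and 0 were at least 1.5-fold lower, against 16.2%. Hexim1 was just short of that size at 1.46-fold, and it was past it under 4 of the 6 other scalings. Ccnt1 was short of it, with a log2 difference of 0.50, when the size factors were taken over all genes listed. For KU55933 against etoposide alone, 0 of the 9 were past 1.5-fold in either direction, against 7.16% of genes kept higher and 11.6% lower. For both drugs against LPS, Hexim1 and Mepce were at least 1.5-fold higher, against 20.5% of genes kept, and 0 of the 9 were at least 1.5-fold lower, against 15.5%. The median log2 difference of the 9 genes was 0.11, −0.11 and 0.03 in the 3 comparisons, and that of all genes kept was −0.015, −0.038 and 0.023. The 3 comparisons share libraries in pairs and are not independent.

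**Figure D3:**
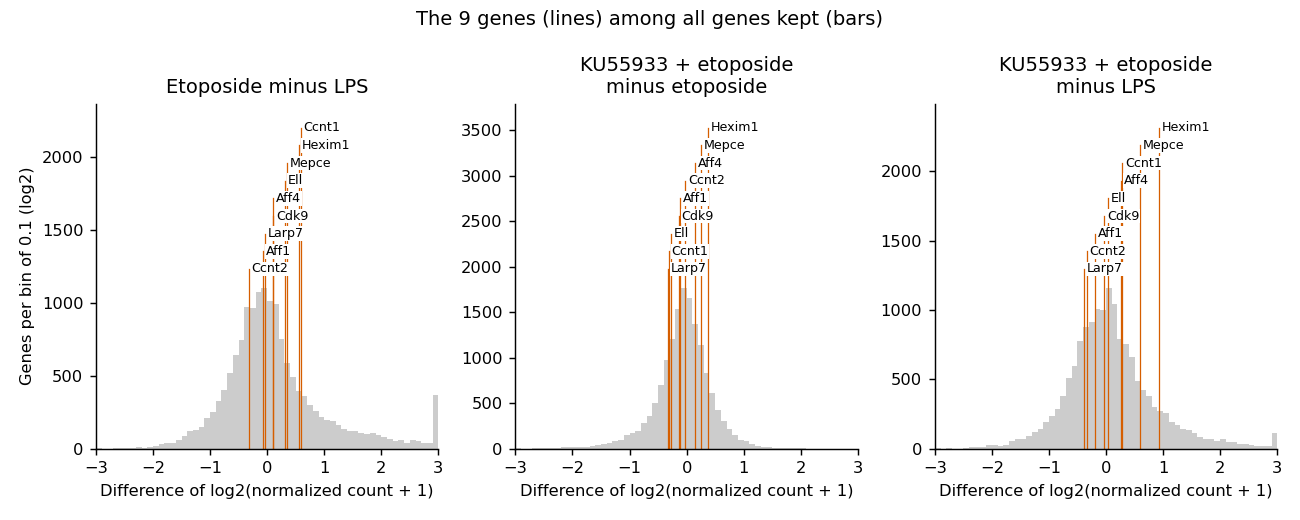
Number of genes kept per bin of 0.1 in the difference of log2(normalized count + 1), with the 9 genes as labelled lines; the outermost bins collect values beyond 3. The 9 genes lie within the central mass of all genes, with Ccnt1 and Hexim1 farthest to the right after etoposide and Hexim1 after both drugs.

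Ratios between transcripts of the same library do not depend on library factors and set the mRNAs of inhibitor, kinase and cyclins against each other. Protein was not measured in these libraries, so the ratios do not give the balance of the proteins. The ratio of Hexim1 to Cdk9 in normalized counts was 0.53 with LPS, 0.716 with LPS + etoposide and 1.027 with LPS + KU55933 + etoposide, an increase over LPS of 0.43 and 0.95 on the log2 scale. The ratio of Hexim1 to Ccnt1 was nearly the same with LPS (0.405) and LPS + etoposide (0.394), since both transcripts were higher after etoposide, and was 0.635 with KU55933 added. For both drugs against LPS, the largest shift among the 7 ratios examined was that of Hexim1 to Larp7, which went from 1.196 with LPS to 1.803 with LPS + etoposide and 2.957 with LPS + KU55933 + etoposide. Larp7 to Mepce moved the other way, from 0.893 to 0.681 and 0.456.

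Cyclin T1 to cyclin T2 mRNA went from 1.101 with LPS to 2.067 with LPS + etoposide and was 1.691 with KU55933 added, and for etoposide against LPS its shift of 0.91 (log2) was the largest of the 7. Aff4 to Aff1 was 1.099 with LPS and 1.497 with LPS + KU55933 + etoposide. Ell to Ell2, its paralogue with a known role in antibody secretion, was 0.245, 0.353 and 0.338. Here Ell2 itself had scaled counts of 2791.7, 2410.0 and 2067.4.

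**Figure D4:**
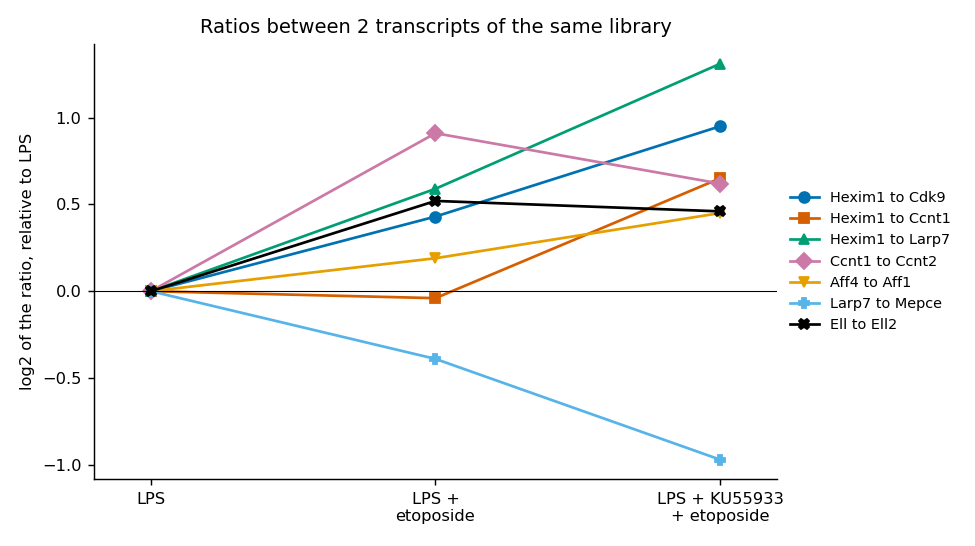
Ratio of 2 transcripts within a library, as log2 relative to LPS, in the 3 conditions, for 7 pairs of genes. The ratio of Hexim1 to Larp7 is 1.31 above LPS with LPS + KU55933 + etoposide and that of Larp7 to Mepce is 0.97 below, whereas that of Ccnt1 to Ccnt2 is highest with LPS + etoposide.

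The wider elongation machinery was described with a list of 46 genes, of which 45 were listed and 44 passed the filter. For etoposide against LPS, 4 of the 44 were at least 1.5-fold higher and 6 at least 1.5-fold lower (9.1% and 13.6%, against 21.9% and 16.2% of all genes kept), with a median log2 difference of −0.21 against −0.015 for all genes kept. The group of the PAF1 complex and Supt6, which travel with elongating polymerase, had 2 of its 8 genes at least 1.5-fold higher, a share close to the 21.9% of all genes kept. Leo1 had counts of 816.3 with LPS, 1998.1 with LPS + etoposide and 1106.6 with LPS + KU55933 + etoposide, and Wdr61 had 1386.8, 2615.3 and 1297.0. Their log2 differences were 1.29 and 0.91 for etoposide, and −0.85 and −1.01 for KU55933 against etoposide alone, and kept these signs under all 7 scalings. The other members of the group, among them Ctr9 (0.44) and Cdc73 (0.05), differed by less than 1.5-fold.

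The NELF complex, which holds polymerase at the pause and is a P-TEFb substrate, had log2 differences below 0 after etoposide in all 4 subunits, with 2 of the 4 at least 1.5-fold lower, against 16.2% of all genes kept, and with a sign for Nelfb that depended on the scaling. The median of the 4 was −0.56, against −0.015 for all genes kept. Nelfe had counts of 1099.6, 587.1 and 773.6 (log2 difference −0.90 for etoposide against LPS) and Nelfa had 1557.4, 1002.4 and 948.4 (−0.64). Nelfcd differed by −0.48, and Nelfb by −0.12 (−0.20 to 0.01). The DSIF subunits, which act with NELF, were close to their LPS level, with −0.03 for Supt5 (−0.12 to 0.25) and 0.11 for Supt4a (0.02 to 0.24).

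Other subunits of the super elongation complex were lower after etoposide in 5 of 6 cases, with 2 of the 6 at least 1.5-fold lower, against 16.2% of all genes kept. The median of the 6 was −0.34, against −0.015 for all genes kept. Aff3, a paralogue of Aff1 and Aff4 expressed in lymphoid cells, had counts of 2989.8 with LPS, 1041.8 with LPS + etoposide and 882.3 with LPS + KU55933 + etoposide, and its log2 difference of −1.52 was below that of all but 1.4% of genes kept. Mllt3, which encodes a YEATS-domain reader of acylated histones, had 589.6, 277.2 and 334.9 (−1.09 for etoposide). Outside this complex, cyclin H (Ccnh), the partner of CDK7 in the general factor TFIIH, had 1013.6, 551.5 and 517.5 (−0.88). In its own group of the list, 1 of 6 genes was at least 1.5-fold lower (16.7%, against 16.2% of all genes kept).

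Polr2a, the largest subunit of RNA polymerase II and the substrate of P-TEFb, had counts of 11122.4, 18992.9 and 15861.8, a log2 difference of 0.77 for etoposide (0.68 to 1.07). It was named after its values were seen, as were Nelfa and the genes of this list given with a difference short of 1.5-fold.

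For KU55933 against etoposide alone, 1 of the 44 genes was at least 1.5-fold higher (2.3%, against 7.16% of all genes kept) and 2 were lower (4.5%, against 11.6%). The former was Tcea2, a TFIIS paralogue, and the latter were Leo1 and Wdr61. Tcea2 had counts of 208.6 with LPS, 123.6 with LPS + etoposide and 212.6 with LPS + KU55933 + etoposide, so that it was lower with etoposide alone. For both drugs against LPS, 1 gene was at least 1.5-fold higher and 9 were lower (2.3% and 20.5%, against 20.5% and 15.5% of all genes kept). Among those lower was Supt16, a subunit of the histone chaperone FACT (5607.6 to 2892.2). The gene on the higher side was Rn7sk, the 7SK RNA itself, with counts of 35.5, 59.0 and 87.8. The libraries were made from polyadenylated RNA, and 7SK carries no poly(A) tail, so these counts do not measure the level of 7SK. Hexim2, which lies 12.7 kb from Hexim1 on the same chromosome and strand and encodes a related inhibitor, had counts of 134.9, 154.8 and 182.7. Its difference of 0.20 for etoposide changed sign with the scaling (−0.01 to 0.33), and Hexim1 made up between 89.0% and 91.9% of the pair per kilobase.

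**Figure D5:**
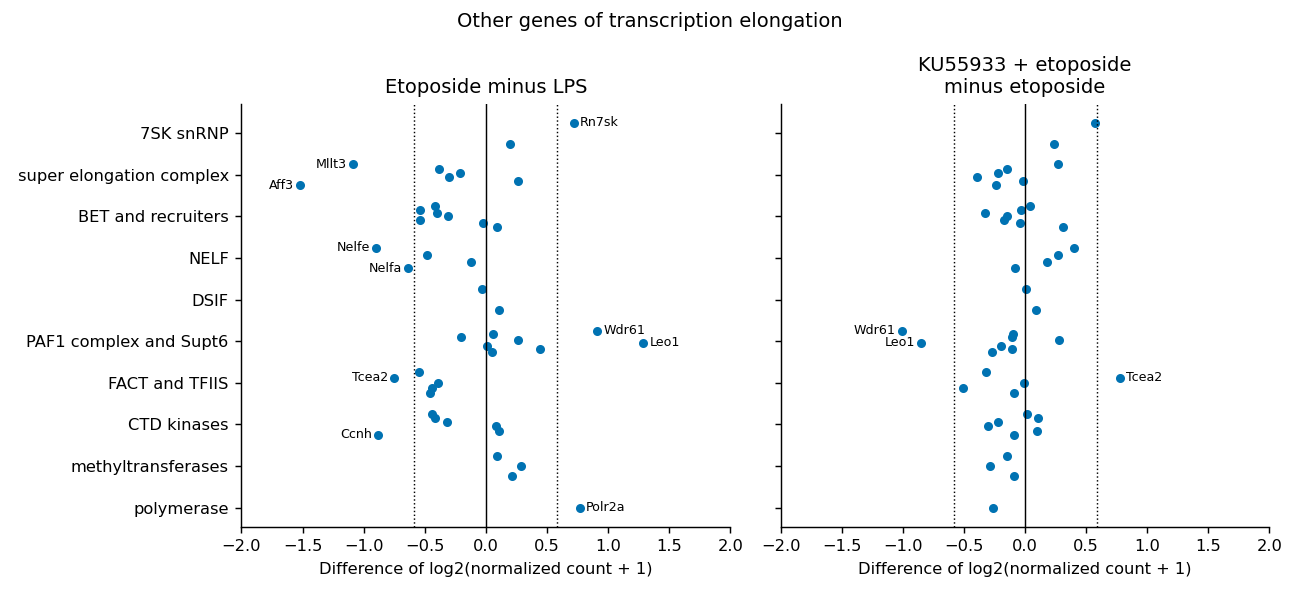
Difference of log2(normalized count + 1) for 44 other genes of transcription elongation, by group, for etoposide minus LPS and for KU55933 + etoposide minus etoposide; dotted lines mark 1.5-fold, and genes beyond them are labelled. Leo1 and Wdr61 lie past the upper line in the first comparison and past the lower line in the second.

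Genes with a pattern most like that of Hexim1 were sought by the Euclidean distance over its log2 differences in the etoposide step and the KU55933 step, among the 10871 genes whose normalized counts averaged 100 or more. The nearest 3 were 2310003H01Rik (distance 0.021, counts 238.5, 346.4 and 445.1), Mx2, an interferon-induced GTPase (distance 0.032, counts 1060.1, 1544.4 and 1965.0), and Rnf103, a ubiquitin ligase of the endoplasmic reticulum (distance 0.036, counts 380.3, 569.5 and 747.9). In all, 22 genes lay within a distance of 0.1. With 3 fitted means the measure rests on 2 differences and says little beyond similar size.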

How the data were processed

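Reads of 100 bases from libraries of polyadenylated RNA were trimmed with Trim Galore and cutadapt 1.2.1, mapped to GRCm38 with TopHat2 2.0.12, counted on Ensembl release 78 genes with HTSeq and fitted with DESeq2 1.6.3 by the authors, per the labels and the methods of the study. The authors deposited normalized counts as 1 signal per gene and library, which on inspection is the fitted mean of a condition times a library factor. The 3 deposited comparison tables hold the authors' means, fold changes, standard errors, Wald statistics and p-values, and were not used. By default that DESeq2 version moderates fold changes toward 0, and whether the authors' fitted means carry this is not given in the sources used here.

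Columns were divided by size factors (median of ratios to the geometric mean over the 15507 genes kept), and differences were taken on log2(normalized count + 1). A limma test was foreseen only for columns with replicate values, so no p-values, intervals or counting floors are given. Precision is limited by the missing replicate spread. Genes were kept at 10 or more in at least 4 columns. Alternatives were TMM, library totals, upper quartile, quantile normalization, pseudocounts of 0.5 and 5, no filter, a minimum of 50, 1.25-fold and 2-fold, and each column left out. Median ratios over all genes and over the 13712 genes at 10 or more in every column were added after seeing the data. The code was tested on simulated tables. Exonic lengths and positions are from GENCODE M21 (GRCm38). Genes named are the 9 members, the largest differences past 1.5-fold (up to 6 per comparison) of the wider elongation list, and the 3 genes nearest to Hexim1; further genes of that list were named after their values were seen. Some items of that list are not reported here. The members and lists were chosen with earlier results of these data known. Scripts ran under Python 3.11.15 (numpy 2.4.6, pandas 2.3.3).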

Additional observations from a re-analysis of the deposited data

How the results depend on the processing

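No paired analysis was possible because the columns of a condition are copies of 1 fitted mean, and no result comes from a test. Of the 27 differences of the 9 genes, 21 kept their sign under all 22 alternatives. The exceptions were Larp7 and Aff1 for etoposide against LPS, Ccnt2 for KU55933 against etoposide alone, and Cdk9, Aff1 and Ell for both drugs against LPS. Not all alternatives could change a sign. The filter settings left these differences as they were by construction, and a pseudocount added to both means cannot reverse their order. Leaving out a column removes only its library factor, since the means were fitted on all libraries. For etoposide against LPS, the number of the 9 genes at least 1.5-fold higher was 1, and it was 2 with library totals, upper quartile, quantile normalization or genes at 10 in every library, and 0 with all genes listed. For both drugs against LPS it was 2, and it was 1 with all genes listed and between 1 and 2 when 1 library was left out, the value of 1 arising without any of the etoposide libraries. At 2-fold, 0 genes were higher in either comparison. At the smaller fold, 3 were higher for etoposide against LPS, 1 was higher and 1 lower for KU55933 against etoposide alone, and 2 were lower for both drugs against LPS.

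Of all genes kept, 1604 were lower for both drugs against LPS with library totals. With a minimum of 50 fewer genes were kept, and their number is not given here. The counts at that minimum therefore cannot be read as shares of all genes kept. They were 2179 higher for etoposide against LPS, 1156 lower for KU55933 against etoposide alone and 2094 higher for both drugs against LPS. The counts at other folds are again of all genes kept. At 2-fold, 2203 were higher and 934 lower for etoposide against LPS, 275 higher and 712 lower for KU55933 against etoposide alone, and 1725 higher and 916 lower for both drugs against LPS. At the smaller fold, 4576 were lower for etoposide against LPS, 2725 higher and 3675 lower for KU55933 against etoposide alone, and 4826 higher and 4375 lower for both drugs against LPS. Of the 44 other elongation genes, 2 were higher for KU55933 against etoposide alone with TMM, library totals, quantile normalization or all genes listed. For both drugs against LPS, 2 were higher with TMM, 3 with upper quartile, 4 with quantile normalization and 5 with library totals, and 5 were lower with library totals. The causes were not tested. Depth in reads is unknown, since the columns hold fitted values.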
